A study of Mus musculus with 2 samples.

Results

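The Gimap genes (GTPases of immunity-associated proteins) are a cluster of 8 mouse genes, Gimap1, Gimap3, Gimap4, Gimap5, Gimap6, Gimap7, Gimap8 and Gimap9, that were followed by their splice junctions in resting and stimulated CD4+ T cells. Members were chosen by name and found by the length and spacing of their introns against a mouse annotation. All 8 were found, with 31 named junctions, among 11116 genes that had at least 1 named junction, and all 8 had the 20 reads over both libraries that were needed for a call. CD4+ T cells, the helper lymphocytes, had been enriched magnetically from 4 pooled spleens of male C57BL/6JJcl mice, and total RNA was sequenced. The stimulated library came from cells kept for 4 h on immobilised anti-CD3e and anti-CD28, at 2 ug/ml of each, antibodies that engage the T cell receptor complex and its costimulatory receptor. The mock library came from cells handled alike for 4 h without antibody. Each group is 1 library from 1 pool, so no spread between samples can be given, no p-value was computed, and a difference between the libraries has no replicate check.

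GIMAP proteins carry a guanine nucleotide binding domain (the AIG1 domain) and are related in fold to septins and dynamins. Some sit on intracellular membranes through a hydrophobic tail. The Gimap genes lie side by side and are used mainly in lymphocytes. In rats and mice, loss of Gimap5 leaves few peripheral T cells, and in mice loss of Gimap1 depletes mature T and B cells; members have been linked to Bcl-2 family proteins, autophagy and the survival of resting lymphocytes.

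The named junctions spanned 123 kb of mouse chromosome 6, chr6:48597285-48720640 in mm9. From the low to the high end they lay in the order Gimap8, Gimap9, Gimap4, Gimap6, Gimap7, Gimap1, Gimap5 and Gimap3, with Gimap6 and Gimap3 on the minus strand and the others on the plus strand. The sequences below are the spliced letters of the GENCODE M21 transcripts (GRCm38) at the junctions on which the results turn, 15 bases of the upstream exon in lower case and 15 bases of the downstream exon in capitals. The first 3 leave the same Gimap5 first exon, and of these the nearer and the farther alternative are 2 acceptors of 1 exon. The next joins Gimap5 exons 2 and 3, and the fifth enters Gimap5 exon 2 from a Gimap1 exon. A pair from Gimap4 shares its upstream exon, and the last 4 belong to the genes with fewer reads in the stimulated library.
Gimap5 exon 1 to exon 2: ccgctgtgcactcggAAGAGAATGGAACAC
Gimap5 exon 1 to the nearer alternative exon: ccgctgtgcactcggTTGTGTGAGGAAATA
Gimap5 exon 1 to the farther alternative exon: ccgctgtgcactcggGCTGCCTCACTGTGT
Gimap5 exon 2 to exon 3: gaactatagttcaagGACCAGAAGCCCACT
Gimap1 exon 2 to Gimap5 exon 2: aggaagacgcctatgAAGAGAATGGAACAC
Gimap4 exon 3 to the far exon: gttcaacagggaacaTGCTCACCCCCCCCG
Gimap4 exon 3 to the near exon: gttcaacagggaacaAGGTGATGCATGAGT
Gimap7 exon 1 to exon 2: aaggccctgcaggagGCACCTGGATTCCAG
Gimap3 exon 2 to exon 3: cctgagagactgttgGGAGACCAATTTCTA
Gimap3 exon 4 to exon 5: agaatgttgtaacagGCGGAAAGAAAGGTG
Gimap6 exon 1 to exon 2: tcagccagcccagtgGTGGAAGAGGAAGAG

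The stimulated library held 1341197 junction reads and the mock library 1147232, so a gene's value is given as reads per 1000000 junction reads (RPM). Ratios are stimulated over mock, each with an exact 95% binomial interval. These intervals cover counting error only, since each group has 1 library. They also treat reads as independent, although reads are not independent molecules. A call of higher or lower needed 20 reads in the 2 libraries together, a 2-fold difference and an interval that did not hold 1. All 10 activation genes listed, among them Il2 and Cd69, were called higher, with a median log2 ratio of 4.51. Of 13 CD4+ T cell markers all 13 had named junctions, 0 were called higher and 3 lower (Cd4, Cd247 and Themis). Summed markers of other cells were low: 178 stimulated and 216 mock reads for 10 B cell genes, 63 and 51 for 7 NK cell genes, and 6 and 18 for the pair of CD8 genes. The 9 myeloid markers found summed to 69 stimulated and 55 mock reads, and the 4 erythroid markers found to 30 and 9. The NK and myeloid sums hold genes that went opposite ways. Eomes had 36 stimulated and 7 mock reads, and Klrd1 had 20 and 38. Cybb had 19 and 5 and Csf2ra 27 and 5, while Lyz2 had 0 and 15 and Flt3 0 and 8. Near-equal sums thus do not show an even share of these cells. Of 7 endothelial markers 4 had named junctions with 105 stimulated and 521 mock reads, of which Pecam1 gave 97 and 504, while Tek and Esam had 0 and 1 read each and Cdh5, Kdr and Cldn5 had no named junction. Gimap genes are also used by B and NK cells, and the part of these cells in the values was not tested. In bulk RNA fewer cells of a type and less RNA per cell cannot be told apart.

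Summed over the family, the 8 genes gave fewer junction reads in stimulated cells, but by less than 2-fold. Gimap5 went the other way, and Gimap9 also had a ratio over 1 (1.13), with an interval that held 1. The family had 1377 reads (1027 RPM) in the stimulated library and 1850 reads (1613 RPM) in the mock library. The ratio was 0.637 (95% interval 0.593 to 0.683), or 1.57-fold lower, which did not reach the fold for a call. Of the 8 members, 1 was called higher (Gimap5), 2 lower (Gimap7 and Gimap3) and 5 neither. Over all 7239 genes tested, 17.3% were called higher and 25.1% lower, so a count of 2 in 8 lower is near the background. With the median of ratios as the scaling, 21.3% were called higher and 20.5% lower. The median log2 ratio was −0.63 over the members and −0.20 over all genes tested. Scaling by the trimmed mean of M values would add 0.20 to every log2 ratio, which leaves the family sum at −0.45. Under it, Gimap3 loses its call (−0.83) and Gimap8 no longer has a ratio under 1.

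**Figure D1:**
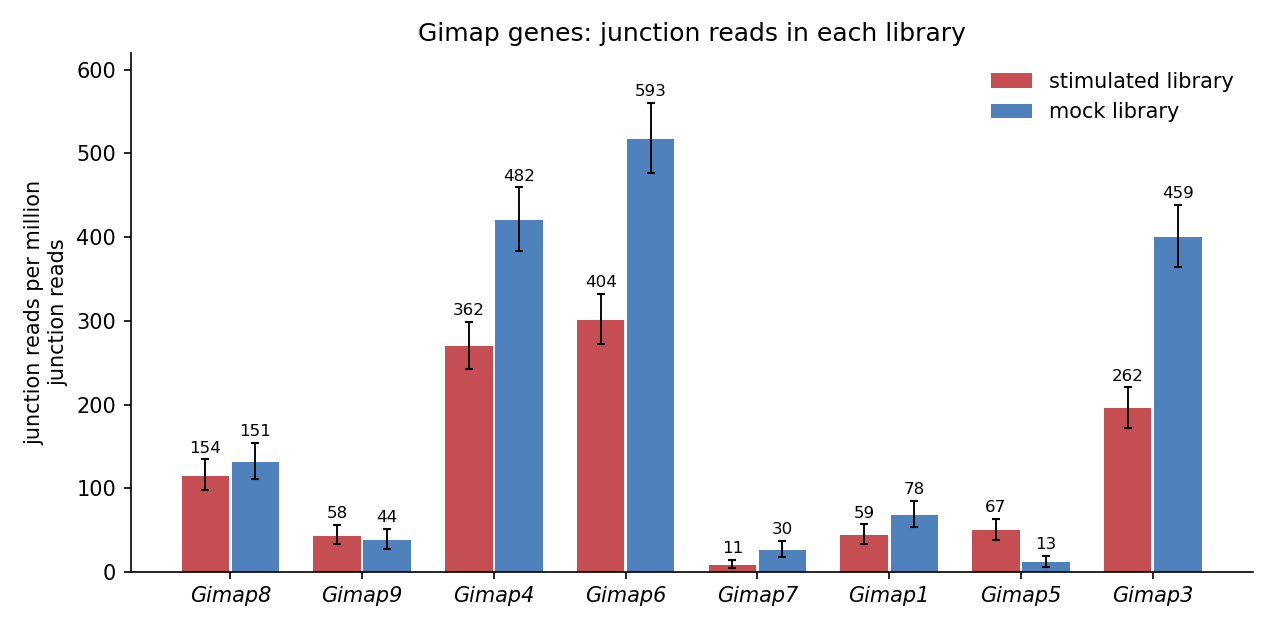
Junction reads per 1000000 junction reads (RPM, vertical axis) of the 8 Gimap genes in the stimulated library (left bar of each pair) and the mock library (right bar), in the order of the genes along the chromosome; numbers are the reads, and error bars are exact 95% Poisson intervals of the counts. Gimap6, Gimap4 and Gimap3 stand highest in both libraries, and Gimap5 has its taller bar, 67 reads against 13, in the stimulated library.

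**Figure D2:**
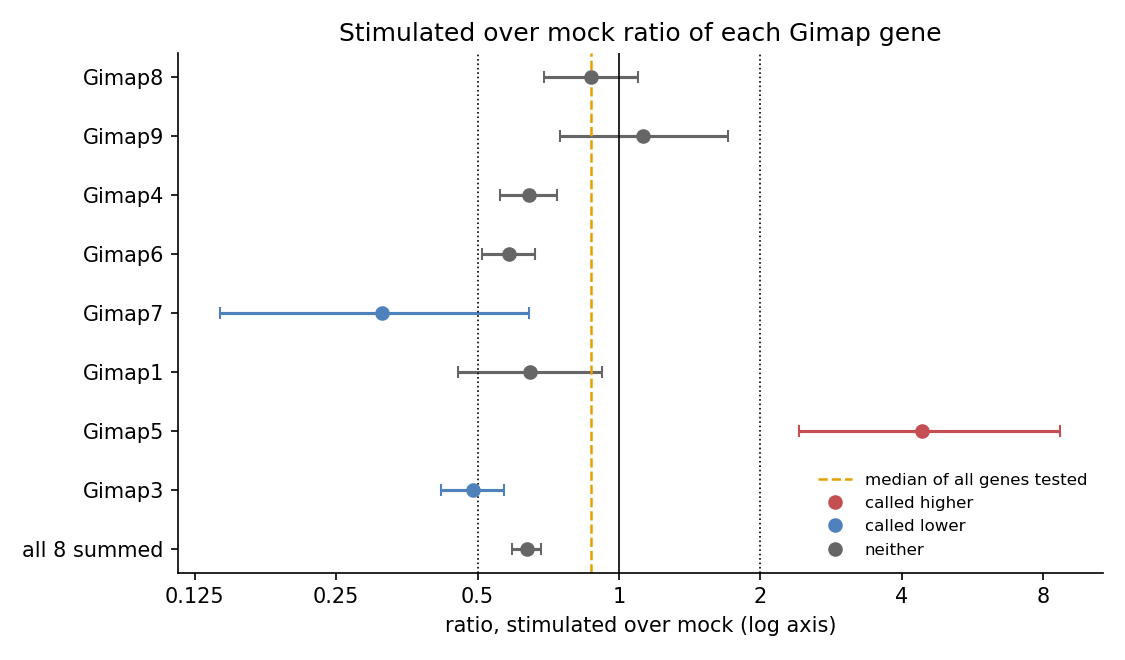
Ratio of stimulated over mock (log axis) for each gene and for the sum of all 8, with exact 95% intervals from counting error; dotted lines mark 0.5 and 2, the dashed line the median of all genes tested. Gimap5 lies at 4.41, Gimap7 at 0.314 and Gimap3 at 0.488, and the other 5 genes lie between the dotted lines.

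Genes were set side by side as mean RPM per named junction, since they differ in their number of junctions. In the stimulated library the order was Gimap6 (75.3), Gimap3 (48.8), Gimap4 (38.6), Gimap8 (23.0), Gimap9 (21.6), Gimap5 (12.5), Gimap1 (11.0) and Gimap7 (8.20). In the mock library it was Gimap6 (129), Gimap3 (100.02), Gimap4 (60.02), Gimap8 (26.3), Gimap7 (26.1), Gimap9 (19.2), Gimap1 (17.0) and Gimap5 (2.83). The counting intervals of neighbours in this order overlapped for Gimap8 with Gimap9, Gimap5 with Gimap1 and Gimap1 with Gimap7 in the stimulated library. In the mock library they overlapped for Gimap8 with Gimap7, Gimap7 with Gimap9 and Gimap9 with Gimap1. On this scale the first 3 genes thus kept their places in both libraries, while Gimap5 stood sixth after stimulation and last in mock. Junctions of 1 gene varied more than these means: those of Gimap6 ran from 5.22 to 144 RPM in the stimulated library and from 0.872 to 291 RPM in the mock library. By the most-read junction of each gene, Gimap4 stood above Gimap6 in the stimulated library (171 against 144 RPM) and below it in mock (221 against 291 RPM). Against all genes tested on the same scale, Gimap6 stood above 98.1% of genes in the stimulated library and 99.4% in the mock library. Gimap5 stood above 76.1% of genes in the stimulated library and 21.8% in the mock library.

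Gimap5, the member whose loss leaves rats and mice short of T cells, was the one called higher. It had 67 reads (49.96 RPM) in the stimulated library and 13 reads (11.3 RPM) in the mock library, a ratio of 4.41 (2.41 to 8.71). These sums hold junctions of coding and of non-coding transcripts. Of all genes tested 94.0% had a lower ratio. Its share of the family's reads was 4.87% in the stimulated library and 0.703% in the mock library.

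Most of its reads were on the junctions that leave Gimap5's own first exon. From exon 1 to exon 2 (chr6:48696430-48700452, mm9, plus strand) there were 20 stimulated reads and 1 mock read, a ratio of 17.1 with a counting interval of 2.74 to 709. From exon 1 to the nearer acceptor of the alternative exon (chr6:48696430-48697111) there were 12 stimulated and 2 mock reads, and to the farther one (chr6:48696430-48697279) there were 28 and 4. In the annotation both junctions to the alternative exon belong to non-coding transcripts only. Stimulated reads also joined the end of that exon to exon 2, as given below. The junction from exon 1 to exon 2 lies in the 5′ untranslated part of the coding transcript. All junctions from this donor together had 61 stimulated and 7 mock reads, a ratio of 7.45 (3.41 to 19.3). All of these junctions were thus low in the mock library and higher in the stimulated one. The intron between exons 2 and 3 (chr6:48700502-48702539) had 7 stimulated and 6 mock reads, a ratio of 0.998 (0.287 to 3.59). Of the named Gimap5 junctions only this one lies within the coding sequence. With its other target included, the donor of exon 2 had 15 stimulated and 6 mock reads, a ratio of 2.14 (0.784 to 6.73). Both intervals hold 1 and both overlap that of the first-exon donor, the first of them only between 3.41 and 3.59. Overlapping intervals do not show that ratios are alike, and the difference between exon 1 and exon 2 was not tested.

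Gimap5 exon 2 was also entered from Gimap1. The annotation holds a read-through gene model, Gm28053, that joins the 2 neighbouring genes, and 10 stimulated and 8 mock reads ran from a Gimap1 donor into Gimap5 exon 2, a ratio of 1.07 (0.380 to 3.12). Into the same exon, 21 stimulated reads and 1 mock read came from Gimap5's own first exon, a ratio of 18.0 (2.89 upwards). The own first exon thus led in the stimulated library and the Gimap1 donor in the mock library. These counts allow acceptors within 3 bases of each other. At the exact acceptor of exon 2 the own exon gave 60.6% of 33 stimulated reads and 14.3% of 7 mock reads, with exact intervals of 42.1% to 77.1% and 0.361% to 57.9%. The mock reads at this site are below the 20 per library set for such shares. The Gimap1 donor gave 24.2% (11.1% to 42.3%) of the stimulated reads and 85.7% (42.1% to 99.6%) of the mock reads, where the intervals overlap at their ends. From all donors 39 stimulated and 9 mock reads entered exon 2, again within 3 bases, a ratio of 3.71 (1.77 to 8.70). A read across a junction that joins Gimap1 to Gimap5 was not counted for either gene. A junction matching both a member and the read-through model was counted for the member. The Gimap1 and Gimap5 sums can therefore hold reads of read-through RNA.

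**Figure D3:**
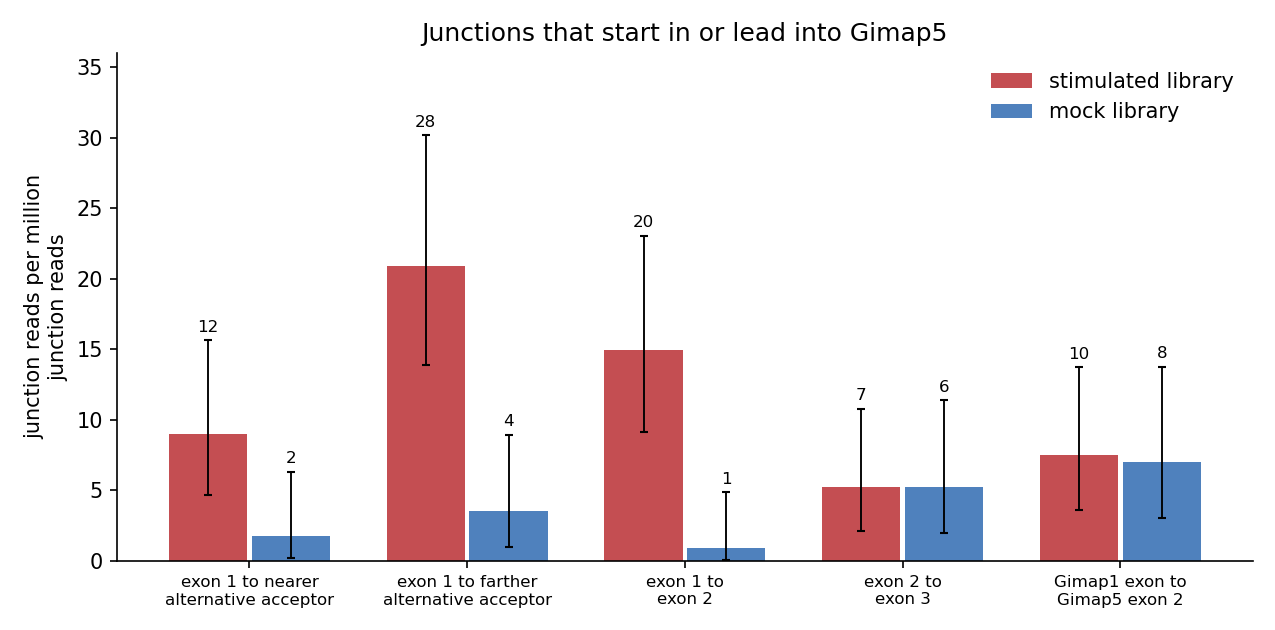
Junction reads per 1000000 junction reads (RPM, vertical axis) for 3 junctions from Gimap5 exon 1 (to 2 acceptors of an alternative exon and to exon 2), the junction between exons 2 and 3, and those from a Gimap1 exon into Gimap5 exon 2, with the stimulated library left and the mock library right; numbers are reads and error bars exact 95% Poisson intervals. The first-exon junctions have 12, 28 and 20 stimulated reads against 2, 4 and 1 mock reads, the junction between exons 2 and 3 has 7 against 6, and the Gimap1 junctions have 10 against 8, with error bars that overlap.

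Reads also outlined exons inside Gimap5 beyond the 3 of its coding model. The alternative exon has 2 starts and 1 end: its form of 179 bases (chr6:48697280-48697458) was entered by 28 stimulated and 4 mock reads, and its form of 347 bases (chr6:48697112-48697458) by 13 and 2. The shared end was left by 7 stimulated and 0 mock reads, which cannot be assigned to either form. Most of these entered exon 2, with 4 stimulated reads at chr6:48697459-48700452 and 2 at chr6:48697459-48700455. The annotated non-coding label of the junctions into this exon therefore does not settle which transcripts they came from. A stretch of 111 bases between exons 2 and 3 (chr6:48701953-48702063) was entered by 8 stimulated and 0 mock reads and left by 3 stimulated reads and 1 mock read; the junctions at its ends have no counterpart among the named ones. At the mock depth 3 reads are 2.61 RPM, so junctions with 0 mock reads are below detection rather than shown to be absent.

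Gimap3 is the close relative of Gimap5 and was called lower. It had 262 reads (195 RPM) in the stimulated library and 459 reads (400.1 RPM) in the mock library, a ratio of 0.488 (0.418 to 0.570), or 2.05-fold lower. In humans the corresponding gene is a pseudogene, while mice keep it as a working gene. Its 4 junctions had ratios under 1 throughout: 117 stimulated and 169 mock reads for exon 1 to 2, 32 and 76 for exon 2 to 3, 46 and 79 for exon 3 to 4, and 67 and 135 for exon 4 to 5. The last 3 were called lower, and the first had a ratio of 0.592. The gene sits just past the threshold and its call is lost under the trimmed mean (−0.83), the median of ratios (−0.83) and with its most-read junction alone (−0.76).

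Gimap3 and Gimap5 are near copies, so their values are uncertain where reads could be placed on either gene. Their coding sequences were 90.7% identical, with a longest identical run of 140 bases, above the 90 bases that 98.3% of the junctions with 1 read covered. The 7 pairs with Gimap8, whose coding sequence has 2064 bases against 873 to 984 in the others, were 72.9% to 76.1% identical over their aligned bases, and the 20 remaining pairs 57.9% to 68.8%. Alignments ran end to end and bases opposite a gap were not counted, so the length of Gimap8 can itself raise its values. They therefore do not show Gimap8 to be the closer relative. Apart from Gimap3 with Gimap5, no pair of members shared a run over 17 bases. At the junction from exon 4 to 5 of Gimap3 and that from exon 2 to 3 of Gimap5, 10 of the 30 printed bases were equal. The 2 genes lay on opposite strands and had ratios on opposite sides of 1. Whether reads were placed on the wrong copy was not tested. The letters at the first-exon junctions of Gimap5 were not compared with Gimap3.

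The 250 bases before the start of Gimap5 (GRCm38.p6 chr6:48745947-48746196, plus strand) and of Gimap3 (chr6:48770852-48771101, minus strand) are shown because these relatives are the pair called in opposite directions. They are RefSeq sequences, each read 5′ to 3′ on the gene's own strand; capitals mark GGAAGT, a core bound by ETS factors.
Gimap5 promoter: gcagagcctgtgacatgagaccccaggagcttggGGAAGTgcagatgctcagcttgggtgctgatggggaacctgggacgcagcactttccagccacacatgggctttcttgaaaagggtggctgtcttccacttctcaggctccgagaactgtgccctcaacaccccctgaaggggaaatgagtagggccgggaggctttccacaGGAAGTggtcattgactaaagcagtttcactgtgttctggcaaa
Gimap3 promoter: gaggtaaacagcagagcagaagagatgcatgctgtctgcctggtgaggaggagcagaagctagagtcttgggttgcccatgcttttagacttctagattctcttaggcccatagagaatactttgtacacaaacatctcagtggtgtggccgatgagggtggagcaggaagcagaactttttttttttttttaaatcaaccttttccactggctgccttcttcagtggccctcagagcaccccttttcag

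Motifs were searched in such windows on both strands for all 8 members and for 32851 promoters in all; no motif contains another. GGAAGT lay in the windows of Gimap5 and Gimap6 and in 19.7% of all promoters. TGTGGT, a RUNX core, lay in those of Gimap1, Gimap4 and Gimap7 and in 14.0% of all. GTAAACA, a FOXO core, lay in that of Gimap3 and in 3.17% of all, and TATAAA in that of Gimap6 and in 12.4% of all. An NF-kB motif lay in 0 of 8 windows and in 0.356% of all. A match describes letters, not a bound site.

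Gimap7, whose human protein stimulates GTP hydrolysis by a relative, was the other gene called lower, on 1 junction. That junction (chr6:48668701-48673447, plus strand) had 11 reads (8.20 RPM) in the stimulated library and 30 reads (26.1 RPM) in the mock library. The ratio was 0.314 (0.142 to 0.644), or 3.19-fold lower with an interval of 1.55 to 7.05. Per junction it was the lowest of the 8 in the stimulated library and level with Gimap8 in the mock library.

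Gimap6, linked in mice and humans to autophagy, was the most-read member and was not called. It had 404 reads (301 RPM) in the stimulated library and 593 reads (517 RPM) in the mock library, a ratio of 0.583 (0.512 to 0.662), or 1.72-fold lower. The interval lay below 1 although the fold stayed under 2. Its main first intron (chr6:48654506-48657957, minus strand) had 193 stimulated and 334 mock reads, a ratio of 0.494 (0.412 to 0.592), and was called lower. The next intron (chr6:48652823-48654420) had 176 stimulated and 221 mock reads, a ratio of 0.681 (0.556 to 0.834). The intervals of these introns of 1 transcript overlap. An alternative first exon joined the same acceptor with 7 stimulated reads and 1 mock read, which is 3.48% (1.41% to 7.04%) of the acceptor's stimulated reads and 0.298% (0.00753% to 1.65%) of its mock reads. The choice after the next donor was alike in both libraries: the main acceptor took 85.9% of 205 stimulated reads and 85.3% of 259 mock reads.

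Gimap4, which in mice speeds the death of T cells, was not called, and its difference depended on 1 junction. The gene had 362 reads (270 RPM) in the stimulated library and 482 reads (420 RPM) in the mock library, a ratio of 0.642 (0.559 to 0.738). From exon 3 to the far exon (chr6:48640457-48641364, plus strand) there were 0 stimulated and 112 mock reads. With 3 reads in place of the 0 the junction was 43.6-fold lower, and the exact interval began at 34.9-fold. The same donor gave 9 stimulated and 2 mock reads to the near exon (chr6:48640457-48640840). Without the far junction Gimap4 had 362 stimulated and 370 mock reads, a log2 ratio of −0.26, which is close to the median of −0.20 over all genes. Of the named junctions with at least 100 mock reads, 2 of 1053 (0.190%) had 0 stimulated reads, and in the other direction 9 of 1655 (0.544%) had 0 mock reads. The printed start of the far exon holds a run of C letters. The cause of the missing reads was not tested.

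The other Gimap4 junctions of at least 20 reads had ratios of 0.774 to 0.941. The first intron (chr6:48634623-48636836) had 229 stimulated and 253 mock reads, a ratio of 0.774 (0.645 to 0.929), and the second (chr6:48636909-48640369) had 44 and 41. At a later donor, the farther of the named acceptors (chr6:48640948-48641410) had 61 stimulated and 61 mock reads, or 84.7% and 83.6% of the donor's reads. The nearer one (chr6:48640948-48641396) had 11 stimulated and 10 mock reads. The balance between these acceptors therefore differed by 1.16 percentage points, within counting error.

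**Figure D4:**
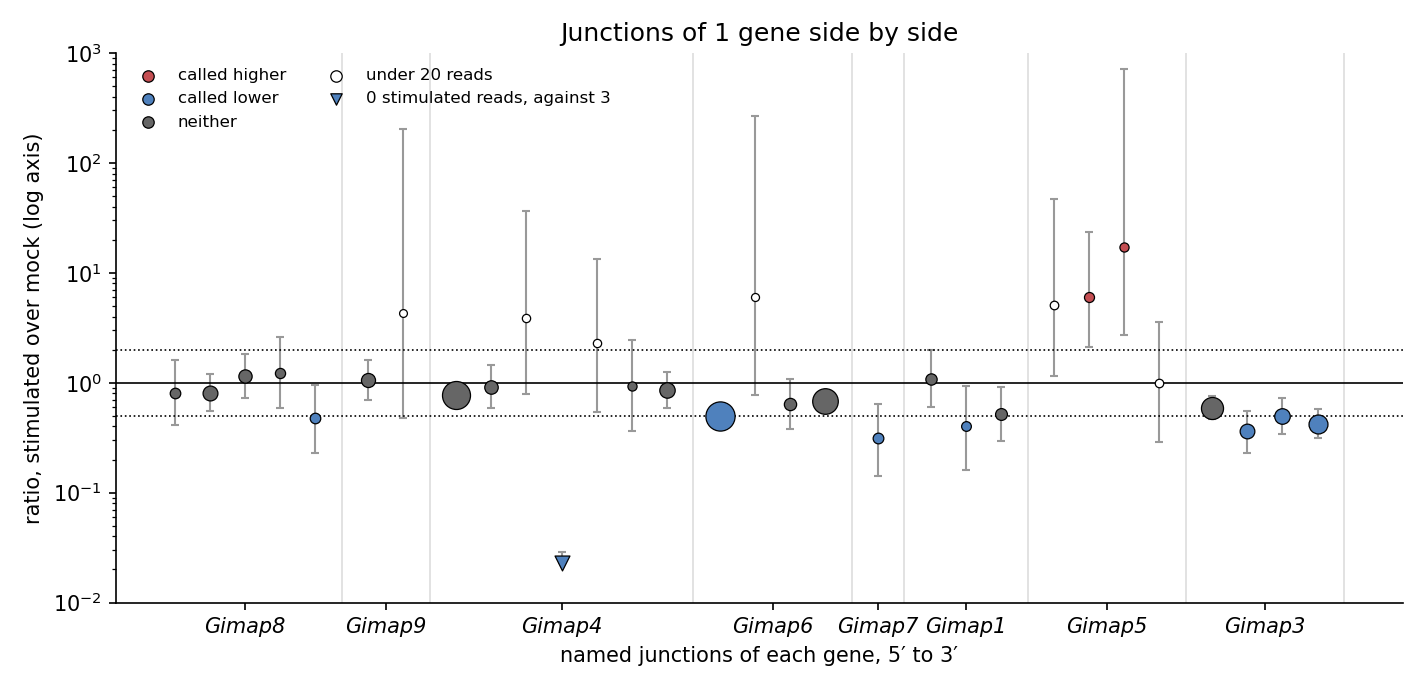
Ratio of stimulated over mock (log axis) for the 30 of 31 named junctions with at least 5 reads, grouped by gene and running 5′ to 3′. Circles grow with the reads, bars are exact 95% intervals, and dotted lines mark 0.5 and 2. A triangle is a ratio with 3 reads in place of 0 stimulated reads. The Gimap3 junctions all lie below 1, the first-exon junctions of Gimap5 above 2, and the triangle is the Gimap4 junction with 0 stimulated and 112 mock reads.

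Gimap1, needed in mice for mature B and T cells, was not called. It had 59 reads (44.0 RPM) in the stimulated library and 78 reads (68.0 RPM) in the mock library, a ratio of 0.647 (0.453 to 0.919). Its first intron had 28 stimulated and 22 mock reads, while both named junctions from its exon 2 had fewer reads in the stimulated library, 9 against 19 and 22 against 36, and the first of these was called lower. An unnamed junction into the second of these acceptors (chr6:48692402-48692497) had 0 stimulated and 9 mock reads.

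Gimap8 and Gimap9 showed the smallest differences among the 8. Gimap8, which encodes the longest protein of the family with 688 codons against 291 to 328 in the others, had 154 reads (115 RPM) in the stimulated library and 151 reads (132 RPM) in the mock library. Its ratio was 0.872 (0.692 to 1.10), equal to the median of all genes to 2 decimals of log2 (−0.20). Of its 5 junctions, 1 was called lower, the last (chr6:48606668-48608721) with 14 stimulated and 25 mock reads. Gimap9 had 58 reads (43.2 RPM) in the stimulated library and 44 reads (38.4 RPM) in the mock library, a ratio of 1.13 (0.749 to 1.71). Nearly all of its reads came from its first intron (chr6:48626254-48627440), with 53 stimulated and 43 mock reads. The intervals of both genes held 1, which does not show that they stayed level.

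**Figure D5:**
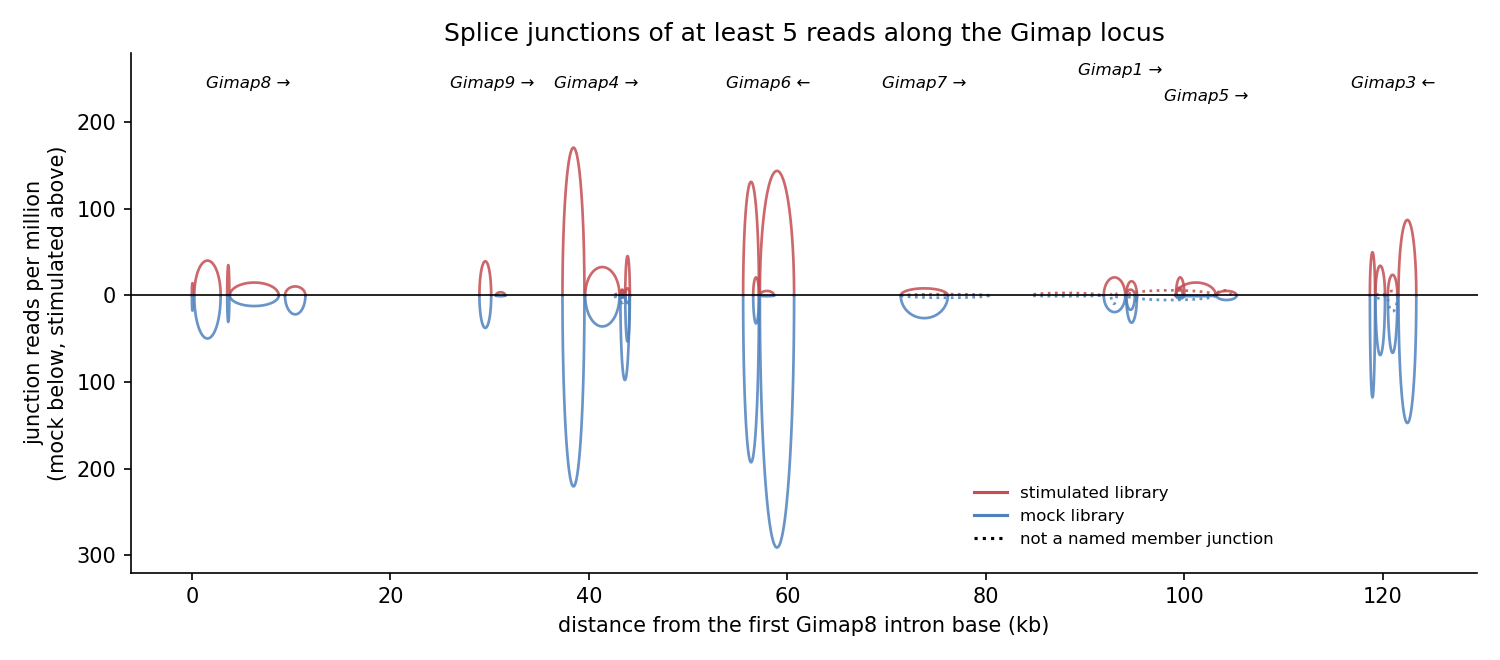
Junctions of at least 5 reads along the locus, drawn as arcs from intron start to intron end; the horizontal axis is the distance in kb from the first Gimap8 intron base, and arc height is RPM in the stimulated library (above the line) and the mock library (below). Arrows give each gene's strand, and dotted arcs are junctions not named as a member's. The tallest arcs belong to Gimap4, Gimap6 and Gimap3, and the tall mock arcs of Gimap6 and Gimap3 reach farther from the line than the stimulated ones.

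In the whole interval there were 105 junctions with 1486 stimulated and 1968 mock reads, and the 31 named member junctions held 1377 and 1850 of these. A further 42 junctions shared 1 end with a named one and had 60 stimulated and 61 mock reads. Of the 31 named junctions 29 were seen in both libraries, 0 in the stimulated library only and 2 in the mock library only.

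Genes next to the cluster had few reads, and 8 of 11 listed had a named junction. Tmem176b, a membrane protein gene, had 16 stimulated and 14 mock reads, a ratio of 0.978 (0.447 to 2.16), and was not called. The others were below 20 reads: Zfp862-ps had 13 stimulated and 3 mock reads, Zfp467 had 1 and 6, Lrrc61 had 4 and 4, Zfp775 had 3 and 3, Tmem176a had 3 and 2, Repin1 had 1 and 0, and Sspo had 0 and 1. No ratio was drawn from these counts.

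Of 5 genes whose proteins have been reported to bind or act with GIMAP proteins, 3 had named junctions. Bcl2l1, a survival protein of the Bcl-2 family, had 24 stimulated and 0 mock reads. With 3 reads in place of the 0 it was 6.84-fold higher, and the exact interval began at 5.15-fold. Bax, a death-promoting relative of Bcl2l1, had 174 stimulated and 115 mock reads, a ratio of 1.29 (1.02 to 1.65). Gsk3b, a kinase that mouse Gimap5 restrains, had 99 stimulated and 231 mock reads, a ratio of 0.367 (0.287 to 0.466), and was called lower. Bcl2 and Gabarapl2 had no named junction. Of 18 Bcl-2 family genes 6 were tested; 2 were called higher, 0 lower and 4 neither, with a median log2 ratio of 0.41, and Bcl2l11, which promotes cell death, had the lowest ratio at 1.01.

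Other gene groups of resting and stimulated T cells are given beside the Gimap values. Of 21 tested genes of resting T cells 1 was called higher, 12 lower and 8 neither, with a median log2 ratio of −2.54 against −0.63 for the Gimap genes. Dgka, a kinase that damps receptor signals, had the most reads, 740 stimulated and 4712 mock, a ratio of 0.134. Rapgef4 had the lowest ratio with 4 stimulated and 166 mock reads, and Cd27, a costimulatory receptor, the highest with 646 and 252. Of 11 tested interferon-inducible GTPase genes 7 were called higher and 0 lower, with a median of 1.37. Among these Gbp2 had 954 stimulated and 144 mock reads, Gbp10 the highest ratio (6.65) and Gbp9 the lowest (1.21). Of 5 tested septin genes 2 were called higher and 1 lower, with a median of 0.62; Sept11 had the highest ratio (6.65), Sept1 the lowest (0.448) and Sept7 the most reads, 1468 stimulated and 620 mock. All of these counts stand beside 17.3% called higher and 25.1% called lower over all genes, and no test was run on any list.

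Among 2842 genes of at least 200 reads, those whose log2 ratio was closest to that of the family sum (−0.65) included Lgals1, Zmym4, Hdac4 and Pikfyve. Lgals1, a secreted galactose-binding lectin, had 102 stimulated and 137 mock reads, and Hdac4, a histone deacetylase, had 111 and 149. Likeness was measured on 1 ratio between 2 libraries and is a description.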

How the data were processed

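Spliced RNA was measured in 2 libraries of mouse CD4+ T cells, 1 per group. The deposited files list splice junctions with, in the score column, counts of spanning reads, per the file headers and values, used with no normalization. TopHat, Cufflinks and the build mm9 are named in the submitters' processing notes; the sources used here give no versions or junction filters, and a junction that the aligner missed or misplaced lowers its gene's value. Insert sizes were 199.014 bp for the stimulated and 211.79 bp for the mock library, per the labels. The annotation, GENCODE M21, is on GRCm38, and no coordinate was converted. A junction took a gene's name when chromosome, strand and intron length equalled those of an annotated intron and its distance to another such junction of a transcript, or (second pass) to a named junction of another gene within 100 kb, equalled the annotated one. Of 124183 junctions 96385 (77.6%) were named and 1384 that matched more than 1 gene were left out. An exception was made for members: a junction matching 1 member and otherwise only read-through models spanning a member was given to the member. Member junctions all lay at 1 constant distance between builds. All positions are 1-based.

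Ratios used reads per 1000000 junction reads (1341197 stimulated, 1147232 mock), with exact Clopper-Pearson 95% intervals (SciPy 1.17.1); 3 reads replaced a 0. Junctions of 1 gene spread 2.02 times the counting variance over 4859 genes, so the intervals are too narrow. Alternative scaling used edgeR 4.0.16. The naming and the ratios were tested on simulated data, made from introns of the same annotation and from counts with counting variance only. Such data leave out differences between mm9 and GRCm38 within a gene and the wider spread between junctions. The members and the gene lists were chosen with earlier results of these data known. Named were all members, listed neighbours and partners with a value, from other lists the tested genes with the highest and lowest ratio and the most reads, and the 5 genes closest to the family sum. A few results that this rule names are not given here. The added exons, the unnamed junctions and the markers singled out were chosen after values were seen.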

Additional observations from a re-analysis of the deposited data

How the results depend on the processing

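Of 69 member ratios under other settings 56 stayed within their counting error and on their side of the thresholds, 8 moved, 2 gained a call and 3 lost one. Gimap5 was called higher under every setting run, with log2 ratios of 1.72 to 2.58. The family sum ranged from −0.71 to −0.44: it was −0.45 with the trimmed mean of M values, −0.44 with the median of ratios and −0.54 without Gimap3. The members called lower numbered 1 with the trimmed mean (20.6% of all genes tested), the median of ratios (20.5%), the first naming pass alone (25.1%) or at least 50 reads (24%). They numbered 5 at a fold of 1.5 (33.5% of all genes) and 0 at a fold of 4, which left 506 genes called higher (6.99%) and 633 lower (8.74%). Gimap8 turned from −0.20 to 0.00 with the trimmed mean and to 0.01 with the median of ratios. Gimap6 was called lower by its most-read junction (−1.02), and Gimap4 without its most-read junction (−1.01), a sum that keeps the junction seen in mock only. The cause of these changes was not tested, other than that fewer genes pass the stricter settings. With the first pass alone Gimap7 and Gimap9 have no value, and without its single junction Gimap7 has none. Adding unnamed junctions that share a splice site was chosen after seeing the data.

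No paired analysis was possible because each group has 1 library, and for the same reason no library was left out. Depth limits single junctions: 3 reads are 2.24 per 1000000 in the stimulated library and 2.61 in the mock library.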
